A study of Zea mays with 2 samples.

Results

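Dense clusters of methylation peaks in the maize embryo were chosen by the positions of the embryo peaks alone. Embryo peaks on chromosomes 1 to 10 were joined in order of start wherever the gap to the previous peak was at most 500 bp, and joined regions with 4 or more peaks were kept. The rule gave 847 clusters out of 297633 joined regions, and they held 3521 of the 351748 embryo peaks. Peak number, spacing, length, covered share and score of the clusters come from the list that chose them and are given as a description. The peaks of the endosperm list took no part in the choice.

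The data are 1 MeDIP-seq library of embryo and 1 of endosperm, both from B73, the inbred line behind the maize reference genome. Ears were self-pollinated and sampled 14 days later, and the methylated DNA was pulled down with an anti-5-methylcytidine antibody. No replicate, treatment or second genotype was included, so no test between the tissues was possible. The lists held 351748 embryo and 114577 endosperm peaks on chromosomes 1 to 10 without read numbers, and read numbers per peak were not used here, so peaks of like score need not rest on like numbers of reads.

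In plants, cytosines are methylated in CG, CHG and CHH contexts, and in maize most of this methylation lies in the transposable elements that fill the space between genes. The embryo and the endosperm are the products of separate fertilisation events in 1 ovule, and the endosperm is the tissue that feeds the embryo and seedling. In Arabidopsis, DNA glycosylases remove 5-methylcytosine in the central cell, from which the endosperm arises. MeDIP-seq shows where sheared methylated fragments pile up, so a peak marks a stretch of methylated DNA and does not give the state of single cytosines. A dense cluster is thus a run of a few kilobases in which several separate pile-ups were called close together.

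Most clusters were as small as the rule allowed. Of the 847 clusters, 734 held 4 peaks, 94 held 5, 18 held 6 and 1 held 7. Cluster length ran from 781 bp to 7006 bp with a median of 1832 bp, and the middle part of the distribution was narrow, with quartiles at 1543 and 2296 bp. Only 16 clusters were longer than 4000 bp and 6 were shorter than 1000 bp. Summed over all clusters the spans came to 1694 kb, of which peaks covered 1184 kb (69.9%). The covered share of single clusters ran from 40.0% to 98.5% with a median of 68.7%. Peaks covered more than 90% of the span in 48 clusters and less than 50% in 36.

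**Figure D1:**
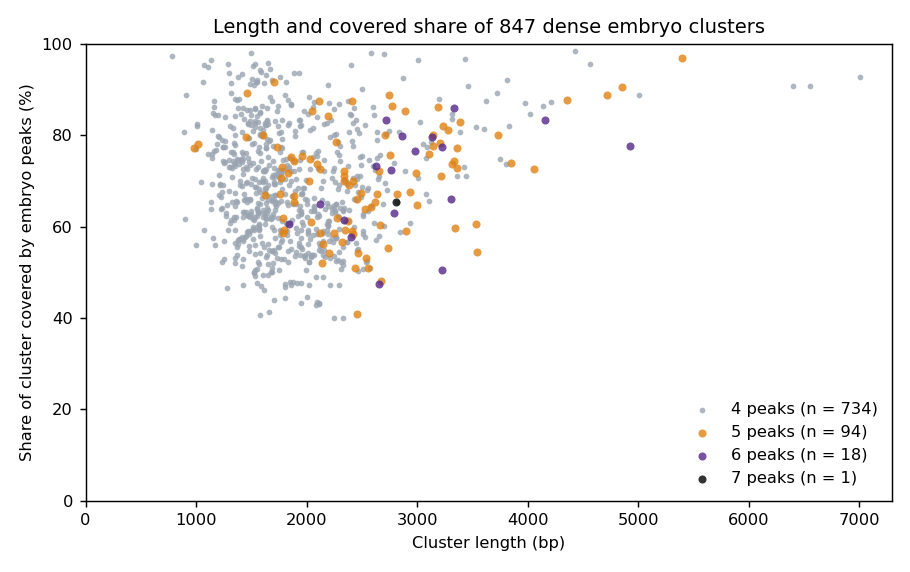
Length in bp (x axis) and share covered by embryo peaks in percent (y axis) for each of the 847 clusters, coloured by the number of peaks. From the 10th to the 90th percentile the lengths run from 1349 to 2758 bp, and clusters with 6 peaks have a median length of 2828 bp against 1753 bp for those with 4.

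The gaps inside clusters ran over the whole allowed range of 1 to 500 bp with a median of 160 bp. Of 2674 gaps, 618 (23.1%) were at most 50 bp wide, so nearly touching peaks were common. From the start of one peak to the start of the next the median distance was 503 bp. Peaks in clusters were 285 bp long at the median, against 268 bp for the 251272 single embryo peaks, those with no other embryo peak within 500 bp. Near the limit of the rule, 153 clusters had a widest gap of 451 to 500 bp, and 21 clusters had a further embryo peak 501 to 550 bp away that was left out. Over all embryo peaks there were 3988 gaps of 451 to 500 bp and 3489 of 501 to 550 bp. Just outside the limit on peak number lay 5927 regions of 3 peaks, with a median length of 1308 bp and a median covered share of 69.9%. With gaps of at most 200 or 1000 bp the rule would have given 172 or 2919 clusters.

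The score of a peak is -10 times the log10 of its p-value in the MACS peak caller, and the lists hold peaks of 50 and above. Scores of cluster peaks were much like those of single peaks, with a median of 85.7 against 87.7. The strongest cluster peak reached 1414.61 and the strongest single peak 3100. Within a cluster, weak and strong peaks stood side by side. The top score of a cluster had a median of 158 and its lowest score a median of 57.4, and the top score was 2.55 times the lowest at the median and 15.4 times at most. In 134 clusters every score was below 100, and in 21 every score was at least 100. The strongest peak was an inner one in 447 of 847 clusters (52.8%), and inner peaks made up 51.9% of all cluster peaks.

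Endosperm peaks met most of the clusters, but fewer than 2 in 5 of their peaks. An embryo peak is called met where it shares at least 1 bp with an endosperm peak. At least 1 peak was met in 623 of 847 clusters (73.6%, 95% Wilson interval 70.5 to 76.4), against 25.8% of all joined embryo regions, most of which hold only 1 peak. Of the cluster peaks, 1306 of 3521 were met (37.1%, interval 35.5 to 38.7), against 23.7% of all embryo peaks and 22.2% of single embryo peaks. These intervals cover counting error only, and they are too narrow because peaks of 1 cluster are neighbours and not independent. Every peak was met in 77 clusters (9.09%), where the share among all joined regions of 2 or more peaks was 10.2% and that among regions of 3 was 6.48%. No peak was met in 224 clusters (26.4%).

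The share of embryo peaks met rises with their score, so single peaks were weighted to the scores of the cluster peaks in 20 bins. Single peaks of like score were met in 21.4% of cases (21.2 to 21.5). Cluster peaks exceeded this by 15.7 percentage points, or 1.74 times. The difference had the same sign in all 20 score bins. In the bin with the lowest scores, 50.02 to 52.06, 26 of 176 cluster peaks (14.8%, 10.3 to 20.8) and 7.69% of single peaks were met. In the bin with the highest scores, from 283.09 up, 167 of 176 cluster peaks (94.9%, 90.6 to 97.3) and 71.2% of single peaks were met. The smallest difference, 5.64 points, lay in the bin from 80.49 to 85.55, and the largest, 32.5 points, in the bin from 202.55 to 282.67. The difference was 26.4 points when endosperm peaks within 200 bp counted as well. By the rule cluster peaks have embryo neighbours within 500 bp and single peaks have none. An endosperm peak can then more easily count for several cluster peaks, which widens the difference by construction. The difference was 40.3 points when embryo peaks scoring below 100 were dropped before joining, which left 33 clusters.

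**Figure D2:**
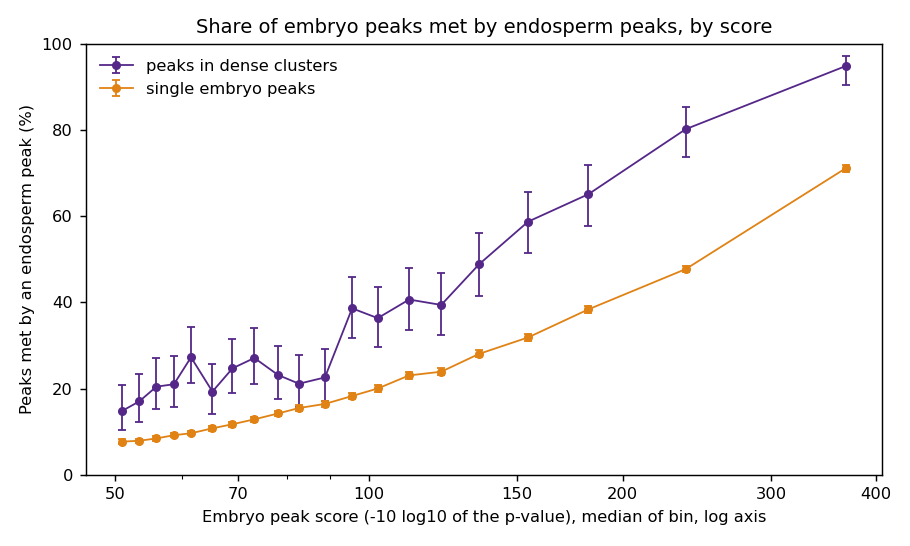
Share of embryo peaks met by an endosperm peak (y axis, percent) by score of the embryo peak (x axis, log scale, median of each of the 20 bins), for cluster peaks and single peaks with 95% Wilson intervals. The cluster peaks lie above the single peaks in every bin, from 14.8% against 7.69% in the lowest to 94.9% against 71.2% in the highest.

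The difference also had the same sign on each of the 10 chromosomes, which are not replicates but give the only spread at hand. The share of cluster peaks met ran from 30.0% on chromosome 7 to 41.0% on chromosome 5. The excess over single peaks of like score ran from 7.56 points on chromosome 10, where 70 of 224 cluster peaks were met, to 19.4 points on chromosome 6, where 117 of 286 were met. Chromosomes 1, 4 and 5 lay close to the upper end, with 19.0, 19.0 and 19.1 points. The intervals of the share met on chromosome 10 (25.5 to 37.6%) and on chromosome 1 (35.9 to 44.4%) overlapped. Those on chromosome 7 (24.7 to 35.8%) and on chromosome 5 (36.4 to 45.8%), the lowest and highest shares, did not. All of them cover counting error only and are too narrow.

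The number of embryo peaks joined went along with the share met. Of the peaks in pairs 26.9% were met, in regions of 3 27.4%, in clusters of 4 34.6% (32.9 to 36.3), in clusters of 5 46.0% (41.5 to 50.5) and in clusters of 6 67.6% (58.3 to 75.7). Single peaks with the scores of these groups were met in 22.5%, 21.0%, 21.0%, 22.5% and 25.9% of cases. The 1 cluster of 7 did not follow, with 2 of 7 peaks met. Among the 734 clusters of 4, no peak was met in 215, 1 in 215, 2 in 168, 3 in 80 and all 4 in 56. Among the 94 clusters of 5, only 9 had no peak met and 15 had all 5 met. All 18 clusters of 6 were met, and in 6 of them every peak was. The size of the difference therefore depended on where the limit was set, with 7.90 points for regions of 3 or more peaks and 26.6 points for clusters of 5 or more.

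**Figure D3:**
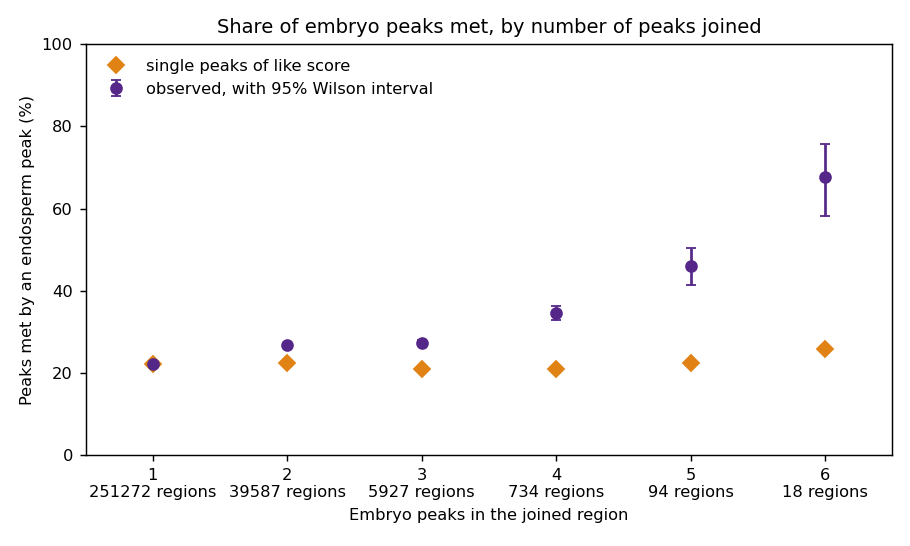
Share of embryo peaks met by an endosperm peak (y axis, percent) by the number of embryo peaks in the joined region (x axis), with 95% Wilson intervals, and the share for single peaks of like score as diamonds. The observed share runs from 22.2% for single peaks to 67.6% for the 18 regions of 6, while the diamonds stay between 21.0% and 25.9%.

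The weaker members of a cluster were met more often than single peaks of their score, as were the strong ones. The strongest peak of each cluster was met in 454 of 847 cases (53.6%), against 37.7% for single peaks of like score. The weakest was met in 213 of 847 (25.1%), against 10.8%. Inner peaks were met in 39.1% and outer peaks in 34.9%, with 21.8% and 20.8% for single peaks of like score. In 623 clusters that were met, the strongest peak was among the met ones in 454 (72.9%). Where only 1 peak was met, in 246 clusters, it was the strongest in 124 (50.4%).

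Cluster peaks beside a met one were met more often than the others. A cluster peak beside a met one was itself met in 835 of 1657 cases (50.4%, 48.0 to 52.8), whereas a cluster peak beside no met one was met in 471 of 1864 (25.3%, 23.3 to 27.3). Single peaks with the scores of these groups were met in 23.9% and 19.2%. Peaks of all clusters were pooled here. The 77 clusters with every peak met gave only met peaks to the first group. The 224 with no peak met gave only unmet peaks to the second. The contrast therefore includes differences between clusters and does not show adjacency within a cluster. An endosperm peak that spans neighbouring embryo peaks makes each of them a met peak beside a met one. The part of such peaks in these shares was not tested. Of 1306 endosperm peaks that met a cluster span, 1195 touched 1 cluster peak, 85 touched 2, 8 touched 3 or more and 18 lay in a gap and touched none.

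The endosperm peaks in the clusters also had a higher median score than their list as a whole. Those touching cluster peaks had a median score of 84.7 and a median length of 252 bp (n = 1288). Those touching single embryo peaks had a median score of 70.8 and a median length of 220 bp (n = 57826), close to the medians of 67.3 and 212 bp over all endosperm peaks. A score of at least 100 was reached by 37.7% of the former (35.0 to 40.3) and 21.6% of the latter. When only endosperm peaks of at least 100 were counted, 34.2% of clusters and 15.2% of cluster peaks were met, against 4.57% of single peaks of like score. Counted in bases, endosperm peaks covered 32.1% of the bases in cluster peaks (380 kb) and 17.2% of those in single peaks. Of the met peaks, 83.8% in clusters and 74.3% of the single ones had at least 50% of their bases under an endosperm peak.

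Outside the clusters endosperm peaks were about as frequent as beside single peaks. From 500 to 5500 bp on either side of a cluster there were 0.580 endosperm peaks on average, against 0.574 beside single peaks of like score. At least 1 endosperm peak lay there for 35.9% of clusters and 41.8% of single peaks of like score. Embryo peaks were fewer in these flanks, 1.29 on average beside clusters and 1.77 beside single peaks. The clusters were thus short runs of close peaks, with flanks that held fewer embryo peaks than the flanks of single peaks.

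The cluster with the most peaks lies on chromosome 7 from 126427090 to 126429900 and holds 7 embryo peaks in 2811 bp. Their scores in order were 59.52, 112.77, 294.93, 68.1, 80.23, 97.29 and 76.72. Only the first and the sixth were met, by endosperm peaks with scores of 61.31 and 71.29, so its strongest peak had no partner in endosperm. The genome build of the positions is not given in the sources used here, and positions count from 1 along the listed chromosomes.

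Among the clusters of 6, the longest was on chromosome 2 from 187034739 to 187039660. Its embryo scores were 239.85, 174.03, 104.2, 87.8, 181.71 and 75.43, and the first 5 were met, by 6 endosperm peaks with scores between 67.86 and 164.75. The cluster on chromosome 5 from 195422581 to 195426737 had all 6 peaks met, with embryo scores from 145.55 to 425.64 and 5 endosperm peaks from 144.06 to 594.03. Among the latter, a peak of 1177 bp spanned 2 embryo peaks. On chromosome 4, the cluster from 5670058 to 5673389 had 5 of 6 peaks met and that from 64261175 to 64264481 had 4 of 6. The peak without a partner in the former was also the weakest of the 6, with a score of 52.39.

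Every peak was met as well in 2 further named clusters of 6. The cluster on chromosome 9 from 5970723 to 5973857 had embryo scores of 91.9, 527.35, 72.98, 170.29, 316.51 and 94.47, and its 6 endosperm peaks had scores of 157.56, 468.69, 231.81, 165.69, 441.56 and 67.82. In both lists the highest scores stood at the second and the fifth peak. The cluster on chromosome 4 from 168960539 to 168963256 was met by only 3 endosperm peaks. The last of them was 1683 bp long with a score of 1064.98 and touched 4 embryo peaks with scores of 325.13, 157.06, 65.32 and 129.4. Here 1 endosperm peak stood where the embryo list had 4 called peaks and gaps of 45, 17 and 3 bp.

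The 3 longest clusters had few but wide peaks. On chromosome 8, the cluster from 48288683 to 48295688 spanned 7006 bp, with 4 embryo peaks of 969, 1552, 2421 and 1562 bp that covered 92.8% of it. Their scores were 237.7, 50.36, 608.64 and 284.81, and all but the second were met, by 5 endosperm peaks. Only 125 kb away, the cluster from 48156845 to 48163400 spanned 6556 bp with scores of 95.32, 163.43, 69.72 and 60.05 and was met at all 4 peaks. The endosperm scores there, 85.88, 171.33, 62.74 and 60.18, had the same order as the embryo scores. The third, on chromosome 7 from 54859501 to 54865900, had wide peaks of low score, 80.17, 55.17, 69.12 and 63.32, and no endosperm peak met it.

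**Figure D4:**
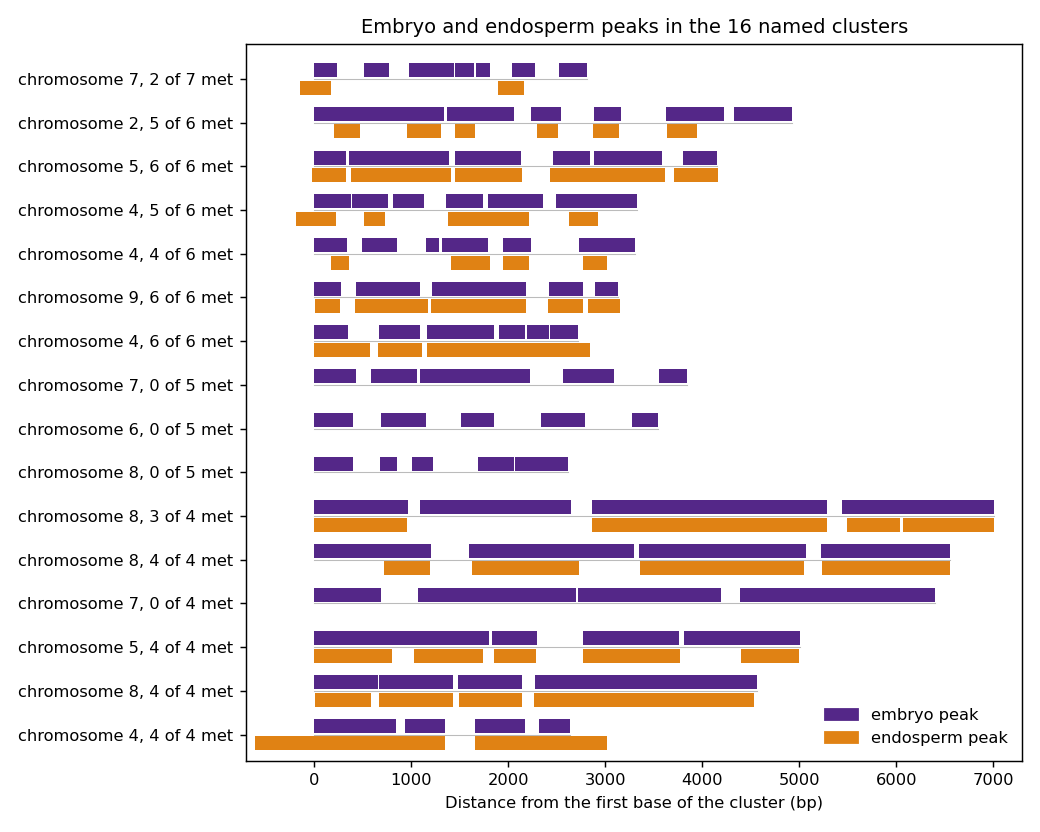
Embryo peaks (upper bars) and endosperm peaks (lower bars) in the 16 named clusters, by distance in bp from the first base of each cluster. In some clusters each met embryo peak has its own endosperm peak and in others 1 endosperm peak spans several, while 4 clusters, with 5, 5, 5 and 4 embryo peaks, have none.

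The 3 clusters with the highest single scores were met at all 4 of their peaks. On chromosome 4 from 11130859 to 11133492 the first embryo peak scored 1414.61 and the others 91.64, 134.18 and 95.41. Only 2 endosperm peaks, of 1963 and 1359 bp with scores of 352.75 and 90.47, covered all 4 of them and reached past both ends. On chromosome 8 from 99622447 to 99627010 the scores were 112.55, 239.38, 192.65 and 1138.71, and each peak had its own endosperm peak, with scores of 109.2, 78.39, 114.11 and 715.6. On chromosome 5 from 81409179 to 81414183 the scores were 928.59, 202.55, 462.69 and 159.39, with 5 endosperm peaks between 68.68 and 498.7.

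The largest clusters without any endosperm peak held 5 embryo peaks each. On chromosome 7 from 132432384 to 132436230 the scores were 70.34, 54.39, 149.18, 68.27 and 63.95. On chromosome 6 from 93137563 to 93141108 they were 96.56, 88.69, 76.08, 70.74 and 67.82. On chromosome 8 from 119908338 to 119910954 they were 64.58, 99.67, 88.96, 59.17 and 134.52. Of these 15 peaks, 13 had a score below 100, as had 60.7% of all cluster peaks.

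Dense clusters were found on all chromosomes, from 54 on chromosome 10 to 120 on chromosome 1. Their number per 1000 embryo peaks ran from 2.02 on chromosome 7 to 2.84 on chromosome 8, and per 10 Mb from 3.51 on chromosome 7 to 4.84 on chromosome 8. Along the chromosomes they were less frequent before and around the middle. With each chromosome cut into 5 equal parts from position 1 to its last peak, the parts held 193, 139, 143, 181 and 191 clusters. That is 22.8, 16.4, 16.9, 21.4 and 22.6% of the clusters, against 19.5, 21.1, 21.2, 19.5 and 18.7% of all embryo peaks. Per 1000 embryo peaks, with 10 equal parts, the first had 3.26 clusters and the fifth had 1.59. The share of cluster peaks met ran from 34.7% in the second of the 5 parts to 41.3% in the first. Single peaks of like score were met in 21.0% and 22.9% there, and all embryo peaks in 22.5% and 25.4%.

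**Figure D5:**
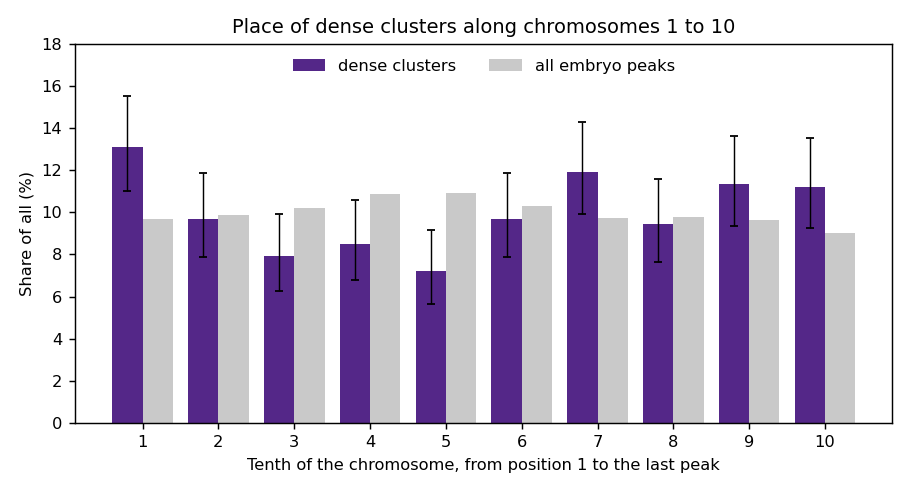
Share of the 847 clusters (dark bars, with 95% Wilson intervals) and of all embryo peaks (light bars) in each of 10 equal parts of the chromosomes (x axis, parts counted from position 1). The clusters take 13.1% in the first part and 7.20% in the fifth, where embryo peaks take 9.68% and 10.9%.

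At the median the nearest other cluster on the chromosome was 729 kb away, and clusters were met more often where another was close. The distances used here were chosen after the values were seen. For 72 clusters another one lay within 50 kb, and 196 of their 307 peaks were met (63.8%, 58.3 to 69.0), against 1110 of 3214 peaks (34.5%, 32.9 to 36.2) in the other 775. Single peaks of like score were met in 24.1% and 21.1%. In 23 of the 72 clusters (31.9%) every peak was met, and in 54 of the other 775. The groups with wider limits include these 72 clusters. Of their peaks, 51.5% were met where another cluster lay within 100 kb, 45.5% within 200 kb and 40.8% within 500 kb. Where no other cluster lay within 100, 200 or 500 kb, 34.5, 34.7 and 34.7% of peaks were met. The share without a near neighbour thus hardly changed with the limit. The 775 clusters without another within 50 kb still exceeded single peaks of like score by 13.5 points, and the 72 with one by 39.7 points.

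Clusters lay in 676 of 2064 windows of 1 Mb, and 4 windows held at least 4. On chromosome 5, 5 clusters lay between 47248708 and 47429638, and 21 of their 22 peaks were met. The peak without a partner had a score of 51.04, the lowest of the 22. On chromosome 1, 4 clusters lay between 267067209 and 267120316, a stretch of 53.1 kb, and 18 of 19 peaks were met. In the 2 other windows, on chromosome 4 from 167 to 168 Mb and on chromosome 6 from 9 to 10 Mb, 12 of 17 and 15 of 20 peaks were met. The closest pair of all lay on chromosome 5, from 17866987 to 17867964 and from 17869044 to 17870698, and 4 of 5 and 4 of 4 peaks were met there. These groups were picked after their values were seen.

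Longer and more fully covered clusters were also met more often. In 3 groups by length, with limits at 1625 and 2140 bp, 28.7, 35.7 and 46.1% of peaks were met, against 18.2, 20.6 and 25.3% of single peaks of like score. In 3 groups by covered share, with limits at 62.9 and 74.6%, the shares were 29.9, 35.9 and 45.3%, against 18.1, 20.9 and 25.4%. Peak length was held alike beside score for the clusters as a whole, and 21.6% of single peaks of like score and length were met. The part of cluster length in the share met was not tested.

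The same rule applied to the endosperm list gave 239 clusters, 2.09 per 1000 endosperm peaks against 2.41 per 1000 embryo peaks. Of the embryo clusters, 64 (7.56%) met an endosperm cluster, and 64 of the 239 endosperm clusters (26.8%) met an embryo cluster. All but 1 of the 239 met at least 1 embryo peak. The shares over all endosperm peaks and over all joined endosperm regions are not given here. These counts thus do not set the endosperm clusters apart from other endosperm regions.

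The study's assignment of embryo peaks to gene regions was used for the first stretch of chromosome 1, up to position 22623587, where 11 clusters lie. The cluster from 15811429 to 15813190 had 2 peaks assigned to the gene model AC189098.3_FG008, the first (score 90.37, not met) to an exon with coding sequence and the second (115.8, met) to an intron, and 3 of its 4 peaks were met. Its first peak was also assigned to the promoter of GRMZM2G000686. The first peak of the cluster from 4438440 to 4439867 was assigned to exon and intron of GRMZM2G303810, and the first of that from 6560739 to 6562455 to exon and intron of GRMZM2G137367. Both scored low, 64.8 and 79.84, and neither was met. The last 3 genes were named after their values were seen, and none of the 4 was on the study's lists of transposable-element or imprinted genes. With only 4 genes, this says nothing about the gene content of the clusters.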

How the data were processed

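MeDIP-seq was performed on 1 embryo and 1 endosperm library of B73. Reads were cleaned by the authors with fastx and mapped with Bowtie2 2.0.5 under default parameters, and peaks were called per library with MACS at a p-value of at most 1e-05. No input library is named in the methods, and the genome build is not given in the sources used here. The deposited score of each peak is -10 times the log10 of the p-value as MACS writes it, and is at least 50. It was used within a list to filter and to weight peaks.

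Peaks were joined, counted and overlapped in Python 3.11.15 (numpy 2.4.6, pandas 2.3.3, figures with matplotlib 3.10.9), with an overlap of at least 1 bp and gaps of at most 500 bp. The code was tested on simulated data and against bedtools 2.31.1. For single peaks of like score, the share met was computed in 20 score bins and averaged with the cluster peaks as weights. Intervals are 95% Wilson intervals for counting error only. Chromosome length was taken as the end of the last peak of either list.

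Clusters named in the text are the 5 with most peaks, the 3 longest, the 3 with the highest peak score, the 3 largest without and the 3 largest with all peaks met, ties going to the longer one. Genes are named where at least 2 peaks of a cluster are assigned to 1 gene, and other clusters and genes as chosen after their values were seen. Cluster rule and lists were chosen with earlier results of these data known. Alternatives were other gaps, peak numbers, scores, overlaps, bins and definitions of single peaks. Sequence composition of the clusters, and their gene content beyond the stretch of chromosome 1 named in the text, were not analysed here, since no genome of the lists' build was used.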

Additional observations from a re-analysis of the deposited data

Results flagged for a closer look

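Outside chromosomes 1 to 10, which the report is about, the sequences not placed on a chromosome held 15 clusters of 4 or more embryo peaks by the same rule. They are given here because they lie in data that the comparisons above leave aside and number more than the 3 that a count of 0 allows, a low bar that says nothing about how frequent such clusters are there. The 15 clusters came from 1652 embryo peaks, or 9.08 clusters per 1000 embryo peaks, against 2.41 on chromosomes 1 to 10. Of their 63 peaks, 55 (87.3%) were met by an endosperm peak, against 43.9% of the single embryo peaks of like score on the same sequences. The mitochondrion, with 65 embryo peaks, and the chloroplast, with 7, held no cluster.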

How the results depend on the processing

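No paired analysis was possible because each tissue has 1 library only and no result comes from a test. The excess of cluster peaks over single peaks of like score was positive in 16 of 16 settings, from 7.90 to 40.3 points. With gaps of at most 200 and 1000 bp there were 172 and 2919 clusters, with 43.5 and 35.0% of peaks met, and the excess was 19.8 and 13.6 points. At 200 bp 77.9% of clusters were met. With at least 3 and at least 5 peaks there were 6774 and 113 clusters, 55.8 and 92.0% of them met, with 29.0 and 49.7% of peaks met and an excess of 7.90 and 26.6 points. Embryo peaks of a score of at least 100 alone gave 33 clusters, of which 97.0% were met, with 82.4% of peaks met and an excess of 40.3 points. These settings change which peaks are members.

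Endosperm peaks of at least 100 alone met 34.2% of clusters, 15.2% of cluster peaks and 4.57% of single peaks of like score, an excess of 10.6 points. With endosperm peaks within 200 bp counted, 48.7 and 22.2% of peaks were met, an excess of 26.4 points. This excess is widened by construction, since cluster peaks have embryo neighbours within 500 bp and single peaks have none. An overlap of 50% of the shorter peak gave 20.9% for single peaks of like score, bins of score and length 21.6%, and single peaks isolated by 2000 bp 20.2%. With each chromosome cut into 3 equal parts, the central one held 31.1% of clusters, and the share of embryo peaks there was not computed.

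Some settings were chosen after seeing the data. The first peak of each cluster alone was met in 35.3%, with 21.1% for single peaks. Weighting by score and by endosperm peaks per 1 Mb gave 21.8% for single peaks. Without the clusters that have another within 200 kb, 34.7% of peaks were met against 21.0%, an excess of 13.7 points. Of the 16 named clusters, 15 had the same number of peaks met under the overlap of 50%, 12 under the distance of 200 bp and 7 under the endosperm score of at least 100. Where the construction of a setting does not show it, the cause was not tested. Read numbers per peak were not used here, so depth per peak was not held alike. The paper reports similar numbers of mapped reads for both libraries.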

Other observations

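Some clusters were very evenly spaced. The coefficient of variation of the steps from peak start to peak start was below 0.1 in 36 of 847 clusters, a limit chosen after the values were seen. How many would fall below it without any even spacing was not computed. These 36 clusters held 4 peaks each, so the coefficient rests on few steps. Of their 144 peaks, 46 (31.9%, 24.9 to 39.9) were met by an endosperm peak, and of the 2844 peaks in clusters with a coefficient of 0.2 or more 37.6% were met, so the intervals overlap. The most even cluster lies on chromosome 6 from 119546622 to 119548426, with 4 embryo peaks at a mean step of 535 bp and scores of 56.11, 76.29, 75.4 and 56.63, none of them met. On chromosome 4 from 167718043 to 167720064, 4 peaks with scores of 59.46, 72.8, 82.47 and 71.1 followed each other at a mean step of 606 bp, and each had its own endosperm peak, with scores of 83.4, 56.56, 84.08 and 112.56.

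On chromosome 9 a cluster started at position 2, the first bases of the chromosome as listed, and ran to 2299. Its embryo scores were 65.36, 84.11, 325.76 and 98.24, and 2 endosperm peaks with scores of 327.8 and 119.1 met all 4. The least covered cluster, on chromosome 9 from 8232914 to 8235165, had 40.0% of its span under 4 peaks with scores from 73.64 to 98.07, and none was met. The most fully covered, on chromosome 8 from 155880054 to 155884484, had 98.5% under 4 peaks with a top score of 831.46, and all 4 were met.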
